A study of Mus musculus with 4 samples.

Results

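The inner bulge niche genes described here are Krt75, Timp3, Fgf18, Serpinb11, Ptgds, Wfdc3, Adcy1 and Depp1, 8 of the 32479 genes in the count tables. They were chosen by their counts in the cells of all 4 mice, because they lead the inner bulge-like cells of the epidermis. Their height in those cells is therefore given as a description with no test. The difference between genotypes was not a criterion of the choice, but earlier results of these data were known. More of the inner bulge-like cells came from the control mice, so the choice was not fully free of genotype. Single cells came from the dorsal epidermis of female C57BL/6N mice at postnatal day 19, with 1 library per mouse. The 2 control mice were CerS4fl/flK14Cre- and the 2 CerS4epi-/- mice were CerS4fl/flK14Cre+, so both genotypes carried floxed CerS4 (ceramide synthase 4) alleles and the Cre recombinase was driven by the keratin 14 promoter of basal keratinocytes. Deletion was thus directed at keratinocytes, not at the T cells and Langerhans cells that share the tissue.

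The bulge of the hair follicle holds the stem cells of the outer layer, and inside it lies a layer of keratin 6-positive cells, the inner bulge, which is left behind when the lower follicle regresses. Inner bulge cells are known as a niche that keeps the adjacent stem cells at rest, in part through secreted fibroblast growth factor 18. The genes studied here cover a secreted ligand (Fgf18), enzymes that make local messengers (Ptgds for prostaglandin D2, Adcy1 for cyclic AMP), inhibitors of proteases or members of such families (Timp3, Serpinb11, Wfdc3), a structural keratin (Krt75) and a gene induced by FOXO factors (Depp1).

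The libraries held between 39231945 and 53106317 estimated counts, and 7567 to 9086 cells per mouse passed a minimum of 1200 counts and a maximum of 20% mitochondrial counts. Too many mitochondrial counts took out 68 and 91 control and 363 and 316 CerS4epi-/- barcodes. Barcodes were compared by their position in each library's list and not by sequence. Of the barcodes kept in a library, 1.83% to 2.05% lay at a position also kept in another library. Cers4 itself, over all cells, was at 17.4 and 3.37 CPM (its counts scaled to a fixed total of all counts) in the control mice and 4.21 and 7.73 CPM in the CerS4epi-/- mice, so the groups overlapped (log2 fold change -0.81, edgeR adjusted p = 0.465). In sebaceous gland-like cells, where most Cers4 counts lay, it was at 2779 and 3968 CPM in the controls (13 and 2 cells) against 276 and 462 CPM (27 and 32 cells), which was too few cells for a test. Whether the counted 3' end lies outside the deleted part of Cers4 is not known from the sources used here.

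The promoters of 3 of the 4 genes called lower in CerS4epi-/- outer bulge-like cells are shown, and the other, Wfdc3, held none of the motifs searched. Windows of 250 bases before and 50 after the start, from RefSeq on GRCm38.p6, matched 8 of 8 genes. Capitals mark TGANTCA, the AP-1 site, in the first pair and GGGCGG, the GC box, in the third. Both were searched on both strands, and the GC box of Timp3 reads as its reverse complement.
Serpinb11 (chr1:107362064-107362363, + strand): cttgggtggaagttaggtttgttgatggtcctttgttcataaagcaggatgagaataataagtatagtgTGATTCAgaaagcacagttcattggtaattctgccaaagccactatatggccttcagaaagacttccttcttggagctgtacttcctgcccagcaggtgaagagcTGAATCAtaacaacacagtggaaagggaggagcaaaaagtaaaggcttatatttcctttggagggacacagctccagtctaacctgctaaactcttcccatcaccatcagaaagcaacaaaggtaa
Ptgds (chr2:25469700-25469999, - strand): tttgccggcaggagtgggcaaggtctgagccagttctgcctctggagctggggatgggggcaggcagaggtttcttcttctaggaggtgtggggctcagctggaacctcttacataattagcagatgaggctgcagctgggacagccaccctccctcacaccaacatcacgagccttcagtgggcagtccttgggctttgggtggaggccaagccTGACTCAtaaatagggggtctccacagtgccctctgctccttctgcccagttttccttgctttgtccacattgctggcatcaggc
Timp3 (chr10:86300162-86300461, + strand): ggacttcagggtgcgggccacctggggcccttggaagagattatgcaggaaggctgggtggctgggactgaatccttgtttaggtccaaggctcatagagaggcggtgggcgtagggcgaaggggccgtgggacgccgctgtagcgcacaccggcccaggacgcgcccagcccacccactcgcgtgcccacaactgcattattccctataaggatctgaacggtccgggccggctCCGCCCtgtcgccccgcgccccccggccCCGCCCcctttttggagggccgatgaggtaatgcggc
TGANTCA was found in Serpinb11 (181 and 76 bases before the start, written as -181 and -76) and in Ptgds (at -35), and in 7.81% of all 32851 promoters of that length. The GC box was found in Krt75, Timp3, Fgf18 and Adcy1 and in 35.7% of all promoters. TAATTA, the core read by LIM homeodomain factors such as Lhx2, was found in Ptgds and in 5.29% of all promoters. GTAAACA, the forkhead motif, lies in 3.65% of promoters and TATAAA in 13.6%, and neither was in the windows of these 8 genes. Depp1, like Wfdc3, held none of the motifs searched. These are matches of letters and not shown to be bound.

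On GRCm39, the build of the counts, all 8 are annotated as protein-coding genes. Serpinb11 lies at chr1:107288928-107308208 on the + strand, Timp3 at chr10:86136236-86185371 (+), Ptgds at chr2:25352795-25362601 (-) and Krt75 at chr15:101471780-101482339 (-). Wfdc3 lies at chr2:164573092-164587871 (-), Fgf18 at chr11:33067014-33097828 (-), Adcy1 at chr11:7013330-7128506 (+) and Depp1 at chr6:116627570-116629755 (+). None of the 8 is a neighbour of another.

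To describe the cells, the 8 genes were held out of a clustering. A cluster of 202 cells had Krt75, Wfdc3, Serpinb11, Ptgds, Timp3, Adcy1 and Fgf18 among its 10 leading genes by fold, beside Krt6a, Ttr and Tmod2. The members were chosen because they lead such cells, and the cluster was named from a marker list that holds all 8 of them. Their rank there is therefore no support for the name. The list also holds 4 inner bulge markers that are not members (Krt6a, Krt16, Bmp6 and Fst). In the inner bulge-like cells of the first gate described below these 4 summed to 8502 and 4998 CPM in the control and 11476 and 14168 CPM in the CerS4epi-/- mice, against 3057 and 2271 and 3052 and 6572 CPM in the outer bulge-like cells. Each mouse had the higher sum in its inner bulge-like cells, though the ranges over mice overlapped. Krt6a alone made up most of these inner bulge-like sums (7666 and 4904 CPM in the control and 10454 and 13724 CPM in the CerS4epi-/- mice). Krt6a also led the outer bulge-like cluster by fold, so the sum rests mainly on a gene not particular to inner bulge-like cells. The cells of the cluster held counts of a median of 6 of the 8 genes, and 90.1% of them held at least 4. In the outer bulge-like cluster 0.907% of cells held at least 4, and in the basal cells of the interfollicular epidermis (IFE) 0.0351% did. Timp3 was seen in 98.5% of the 202 cells, Wfdc3 in 90.6%, Serpinb11 in 89.1%, Krt75 in 75.2%, Ptgds in 69.8%, Adcy1 in 62.4%, Fgf18 in 55.0% and Depp1 in 52.0%. T cell markers (Cd3d, Cd3e, Cd3g, Trdc and Ctsw) were at 0 in the gated inner bulge-like cells of all 4 mice. Cells that also passed the T cell, Langerhans cell or sebaceous gland gate had been set aside as mixed, which favours low values. By the first gate, the 6 Langerhans cell markers summed to 57.6 and 64.0 CPM in the control and 88.2 and 52.5 CPM in the CerS4epi-/- mice. Cd207 was at 0 in all 4 mice, and in CerS4epi-/- 1 only 1 of the 6, Mfge8, was detected. The 6 fibroblast markers were at 18.8 CPM in control 2 and at 0 in the other mice.

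To measure each gene in cells that its own counts did not define, a pair of gates was used. The first took cells with at least 3 counts of Krt75, Wfdc3 and Fgf18 together and served Timp3, Ptgds, Adcy1, Depp1 and Serpinb11. The second took cells with at least 3 counts of Timp3 and at least 1 of Ptgds, Adcy1 or Depp1 and served Krt75, Wfdc3 and Fgf18. Both gates picked largely the same cells: 160 were in both, which is 80.4% of the first and 78.8% of the second gate, and 86.9% and 83.7% of the gated cells lay in the cluster.

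Inner bulge-like cells made up a smaller share of the cells in both CerS4epi-/- mice. By the first gate they were 66 and 58 cells in the controls (0.778% and 0.638%) against 39 and 36 cells (0.433% and 0.476%) in CerS4epi-/- mice, a ratio of 0.641. By the second gate the shares were 0.849% and 0.638% against 0.444% and 0.436%, a ratio of 0.591, and by the cluster 0.873% and 0.660% against 0.388% and 0.436%, a ratio of 0.538. The groups did not overlap by any of the 3 definitions, but the exact two-sided permutation test gave p = 0.33 for each, the smallest that 2 mice against 2 allow. Both gates are thresholds on counts of members, while the cluster was made with the members held out. Among the gate genes, Krt75, Timp3, Wfdc3, Fgf18 and Adcy1 were lower in inner bulge-like cells of both CerS4epi-/- mice. None of these differences passed the test described below, and the groups overlapped for Ptgds and Depp1. How many of all genes were lower in both mice was not counted, so this is a description. In the cluster the groups overlapped for Wfdc3 too, and the ratios of the others lay nearer to an equal level. They were 0.706 for Krt75 (0.620 by its gate), 0.914 for Timp3 (0.775), 0.868 for Fgf18 (0.791) and 0.790 for Adcy1 (0.643). The part of these levels in the gated shares was not tested. With at least 2000 counts required per cell the groups overlapped under the first gate (0.697% and 0.533% against 0.473% and 0.552%, ratio 0.833, exact p = 0.667).

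**Figure D1:**
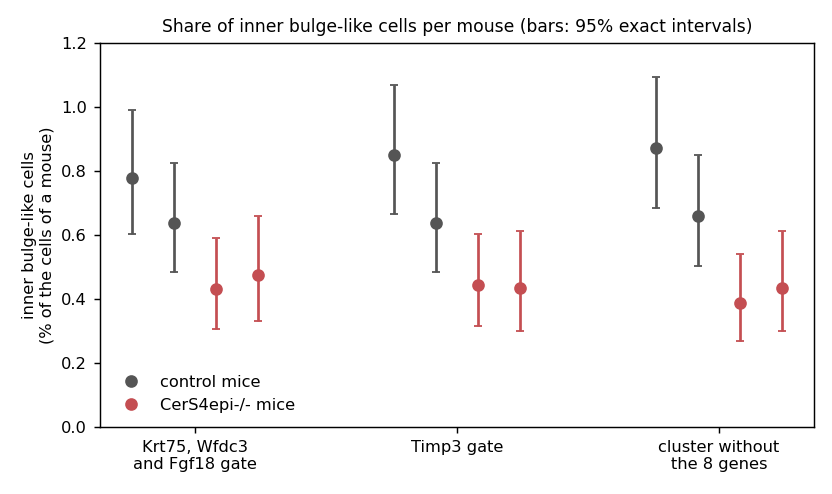
Share of inner bulge-like cells among all cells of each mouse (vertical axis, percent) by the first gate, the second gate and the cluster made without the 8 genes. Points are mice and bars are 95% exact binomial intervals, which cover counting error only; the control mice lie between 0.638% and 0.873% and the CerS4epi-/- mice between 0.388% and 0.476%.

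Summed over all cells of a mouse, 4 of the 8 genes fell in CerS4epi-/- mice and the median log2 fold change of the 8 was -0.72. For comparison, 6.04% of the 16034 genes tested were called lower and 8.17% higher. The call was an adjusted p under 0.05 by edgeR's quasi-likelihood test on the counts summed per mouse, with Benjamini-Hochberg adjustment over all genes tested. Such a sum cannot tell fewer cells of a type from less RNA per cell, and within a class a changed mix of cells cannot be told apart from a changed level per cell.

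Fgf18, the secreted ligand, was at 2.73 and 2.95 CPM over all cells of the control mice and 1.32 and 1.71 CPM in the CerS4epi-/- mice. The groups did not overlap, and it fell by 0.91 on the log2 scale (SE 0.20, edgeR adjusted p = 0.0315), a call that held under 5 of 11 alternatives and was lost without either CerS4epi-/- mouse, without control 2, with DESeq2's test, at a limit of 10% mitochondrial counts and without cells that held immune or fibroblast counts (adjusted p up to 0.115). Serpinb11, an intracellular serine protease inhibitor, was at 16.1 and 11.6 against 5.82 and 5.26 CPM. Its fall of 1.32 on the log2 scale (SE 0.17, edgeR adjusted p = 0.00755) was called under 11 of 11 alternatives.

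Krt75, a keratin of the companion layer and inner bulge, was at 8.96 and 7.58 CPM over all cells of the controls and 3.98 and 5.34 CPM in the CerS4epi-/- mice. It fell by 0.84 (SE 0.16, edgeR adjusted p = 0.0246), a call lost without CerS4epi-/- 1 and under 3 other cell filters (adjusted p up to 0.0998 over the alternatives). Timp3, the tissue inhibitor of metalloproteinases that binds to matrix, fell by 0.62 (SE 0.15, edgeR adjusted p = 0.0415), with 80.2 and 56.4 CPM against 43.0 and 46.1 CPM. That call was lost without either CerS4epi-/- mouse and at 2000 counts per cell (adjusted p up to 0.103 over the alternatives). The other members did not pass: Adcy1 had a log2 fold change of -0.78 (edgeR adjusted p = 0.103), Wfdc3 of -0.66 (0.0668), Depp1 of -0.41 (0.107) and Ptgds of -0.31 (0.508).

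Within the inner bulge-like cells, 1 of the 8 genes fell, Serpinb11, and the median log2 fold change was -0.37. Over all genes tested there, 0.884% were called lower and 1.48% higher with the first gate, and 0.221% were called lower with the second. The sums rested on 33 to 72 cells per mouse, so a p that misses the threshold here does not show an equal level.

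In inner bulge-like cells Serpinb11 stood at 1444 and 1347 CPM in control and at 730 and 425 CPM in CerS4epi-/- mice, that is 1396 ± 68.7 against 577 ± 216 (SD, n = 2). The groups did not overlap, and the log2 fold change was -1.27 (SE 0.27, edgeR adjusted p = 0.0282). With the second gate, added after the data were seen, it was 1349 and 1332 against 651 and 554 CPM (log2 fold change -1.17, SE 0.18, edgeR adjusted p = 0.0172). The call was lost without control 1, with stricter gates and without cells that held immune or fibroblast counts (adjusted p up to 0.327 over the alternatives).

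Krt75 was at 1007 and 1070 CPM in control inner bulge-like cells and 485 and 801 CPM in CerS4epi-/- ones, a mean of 1038 ± 44.8 against 643 ± 224 (SD, n = 2). Both CerS4epi-/- mice were below both controls, but the log2 fold change of -0.71 (SE 0.24) did not pass (edgeR adjusted p = 0.261). Adcy1, the calcium-stimulated adenylyl cyclase, was also lower in both CerS4epi-/- mice without passing, at 295 and 263 against 221 and 138 CPM (log2 fold change -0.62, edgeR adjusted p = 0.293). For Timp3 the values were 3446 and 3380 against 2751 and 2538 CPM (-0.36, edgeR adjusted p = 0.521). Both groups of Fgf18 were also apart, at 222 and 244 against 166 and 203 CPM, with a log2 fold change of -0.37 (SE 0.22, edgeR adjusted p = 0.575).

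Wfdc3, of the whey acidic protein family that includes protease inhibitors, was at 769 and 682 CPM in control and 636 and 598 CPM in CerS4epi-/- inner bulge-like cells (log2 fold change -0.25, edgeR adjusted p = 0.666). For Ptgds and Depp1 the groups overlapped. Ptgds, the lipocalin-type prostaglandin D synthase, was at 602 and 373 against 533 and 401 CPM (-0.06, SE 0.27, edgeR adjusted p = 0.965). Depp1 was at 439 and 286 against 405 and 339 CPM (0.04, SE 0.25, edgeR adjusted p = 0.978).

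**Figure D2:**
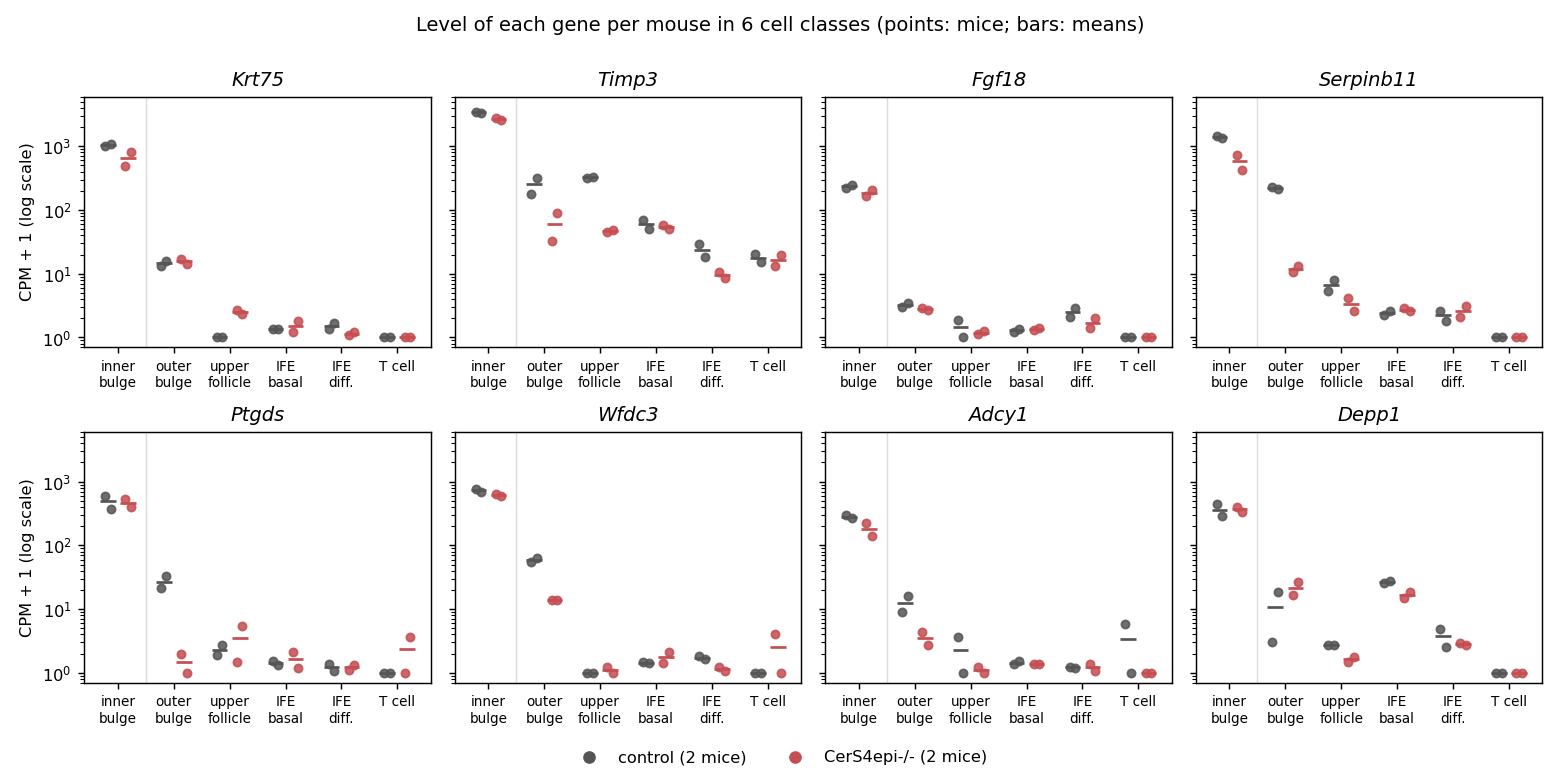
Level of each of the 8 genes in 6 cell classes (vertical axis, CPM + 1 on a log scale), each in the gate its own counts did not define. Points are the 2 mice of a genotype and bars their means; in the outer bulge-like cells the control points of Serpinb11 (230 and 215 CPM) lie far above the CerS4epi-/- points (9.65 and 12.4 CPM), while in inner bulge-like cells Ptgds and Depp1 overlap between genotypes.

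The outer bulge-like cells, gated on Cd34, Lhx2, Sox9, Lgr5, Wif1 and Tbx1, were compared in the same way. The class is named for that gate, and it also held upper hair follicle and IFE differentiation markers at high levels, given below. The summed level of the 8 outer bulge markers, Krt15 and Postn included, was 6933 and 4951 CPM in the control and 4619 and 3353 CPM in the CerS4epi-/- mice, which goes against the name. It was 9793 and 9997 against 8254 and 8720 CPM in IFE basal-like cells and 22898 and 20669 against 20242 and 20499 CPM in inner bulge-like cells, where Cd34 was at 0 in 3 mice and Wif1 in all 4. Of 6 members tested in the outer bulge-like cells, 4 fell (Serpinb11, Ptgds, Timp3 and Wfdc3). Ptgds passed the filter on low counts only through the control mice, so the count of 4 is given as a description. Among all genes tested in that class 4.31% were called lower and 3.57% higher with the first gate, and 4.48% lower with the second. Fgf18 and Adcy1 were too low to be tested, with 4 and 6 counts of Adcy1 in the control mice and 7 and 3 in the CerS4epi-/- mice. There were 119 and 80 such cells in the controls and 319 and 288 in the CerS4epi-/- mice, and the CerS4epi-/- cells were deeper, with a median of 4940 and 4710 counts against 3004 and 3262.

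Serpinb11 was at 230 and 215 CPM in the control outer bulge-like cells and at 9.65 and 12.4 CPM in the CerS4epi-/- ones, a mean of 222 ± 10.8 against 11 ± 1.97 (SD, n = 2). The groups were far apart, and the log2 fold change of -4.32 (SE 0.22, edgeR adjusted p = 6.70e-06) was called under 15 of 15 alternatives. A count of Serpinb11 was seen in 31.1% and 25% of control cells against 1.25% and 2.43% of CerS4epi-/- cells. With every cell thinned to 1200 counts the shares were 20.2% and 15.0% against 0.940% and 1.04%. No T cell-like cell of the 445 held a count of it (median 1541 to 1906 counts per cell in the 4 mice), which allows shares of up to 2.55% to 5.52% per mouse by the 95% exact limits. In the outer bulge-like cluster, made without the 8 genes, Serpinb11 was at 318 and 416 CPM against 22.2 and 18.8 CPM.

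Timp3 was at 179 and 321 CPM against 31.9 and 87.6 CPM in the outer bulge-like cells, and the groups did not overlap (log2 fold change -2.06, SE 0.40, edgeR adjusted p = 0.00947). The call was lost without control 2 and with DESeq2 (adjusted p up to 0.170 over the alternatives). Wfdc3 was at 54.4 and 62.4 CPM against 12.9 and 12.7 CPM (log2 fold change -2.15, SE 0.29, edgeR adjusted p = 0.0012). Of the cells gated as outer bulge-like, 3 and 4 in the control mice and 1 and 1 in the CerS4epi-/- mice lay in the inner bulge cluster. Leaving out the cells of that cluster, an alternative chosen after seeing the data, kept Serpinb11 (-4.06), Timp3 (-1.66) and Ptgds (-5.41) as called, and Wfdc3 then missed the threshold (-1.41, edgeR adjusted p = 0.0653).

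Ptgds gave 10 and 13 counts in the control outer bulge-like cells and 2 and 0 in the CerS4epi-/- ones. With so few counts in the CerS4epi-/- mice the gene entered the test through the controls alone. The ratio of the summed counts per total was 0.0208, with a 95% exact interval of 0.00238 to 0.0843 that covers counting error only (fitted log2 fold change -5.31, edgeR adjusted p = 0.00129). The call was lost without either CerS4epi-/- mouse (adjusted p up to 0.180 over the alternatives). In the outer bulge-like cluster the levels were 28.4 and 37.4 CPM against 2.56 and 8.18 CPM (log2 fold change -2.50, edgeR adjusted p = 0.0257).

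Not every member was lower in this class. Krt75 was at 12.1 and 15.0 CPM in the controls and 16.3 and 13.3 CPM in the CerS4epi-/- mice, with overlapping groups (log2 fold change 0.17, edgeR adjusted p = 0.869). Depp1 was at 2.02 and 17.3 against 15.9 and 25.5 CPM, also overlapping (log2 fold change 1.2, edgeR adjusted p = 0.311). Depp1 rested on 8 control and 76 CerS4epi-/- counts in this class, so it entered the test through the CerS4epi-/- mice. Leaving out the cells of the inner bulge cluster put Depp1 past the threshold in the higher direction (4.04, edgeR adjusted p = 0.0249). That value is given as a description.

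The summed levels of an IFE differentiation list and of a Langerhans cell list moved with the genotype in the outer bulge-like cells. The summed level of 6 IFE differentiation markers was 27881 and 40968 CPM in the controls and 15842 and 13915 CPM in the CerS4epi-/- mice, with every marker detected in each mouse. The 6 Langerhans cell markers summed to 38.3 and 9.87 against 88.8 and 101 CPM. Of these Cd207 was at 0 in all 4 mice, so the sum rests on the other markers and does not show more Langerhans cells. The sums of the outer bulge markers given above did not overlap either and were lower in the CerS4epi-/- mice. The groups overlapped for the 7 upper hair follicle markers (41249 and 32110 against 32532 and 31589 CPM) and for the 4 inner bulge markers that are not members. In the control mice the same 7 markers summed to 45566 and 45439 CPM in upper hair follicle-like and to 2264 and 591 CPM in inner bulge-like cells. By these markers the control outer bulge-like cells were thus nearer to the upper hair follicle-like cells, which goes against the name. The part of these in the differences above was not tested.

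The difference of the genotype effect between inner and outer bulge-like cells was tested with the mouse as a block. It passed for 4 of the 8 members, against 1.44% of all genes tested with the first gate and 2.3% with the second. The fall of Serpinb11 was smaller in the inner bulge-like cells by 3.01 on the log2 scale (SE 0.33, edgeR adjusted p = 0.00013), that of Ptgds by 5.13 (SE 0.74, 0.00156; 23 control and 2 CerS4epi-/- counts in the outer bulge-like cells, which entered the test through the controls), that of Wfdc3 by 1.86 (SE 0.32, 0.0076) and that of Timp3 by 1.76 (SE 0.40, 0.0452). For Krt75 the difference was -0.95 (SE 0.48, edgeR adjusted p = 0.408) and for Depp1 -1.15 (SE 0.68, 0.579).

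**Figure D3:**
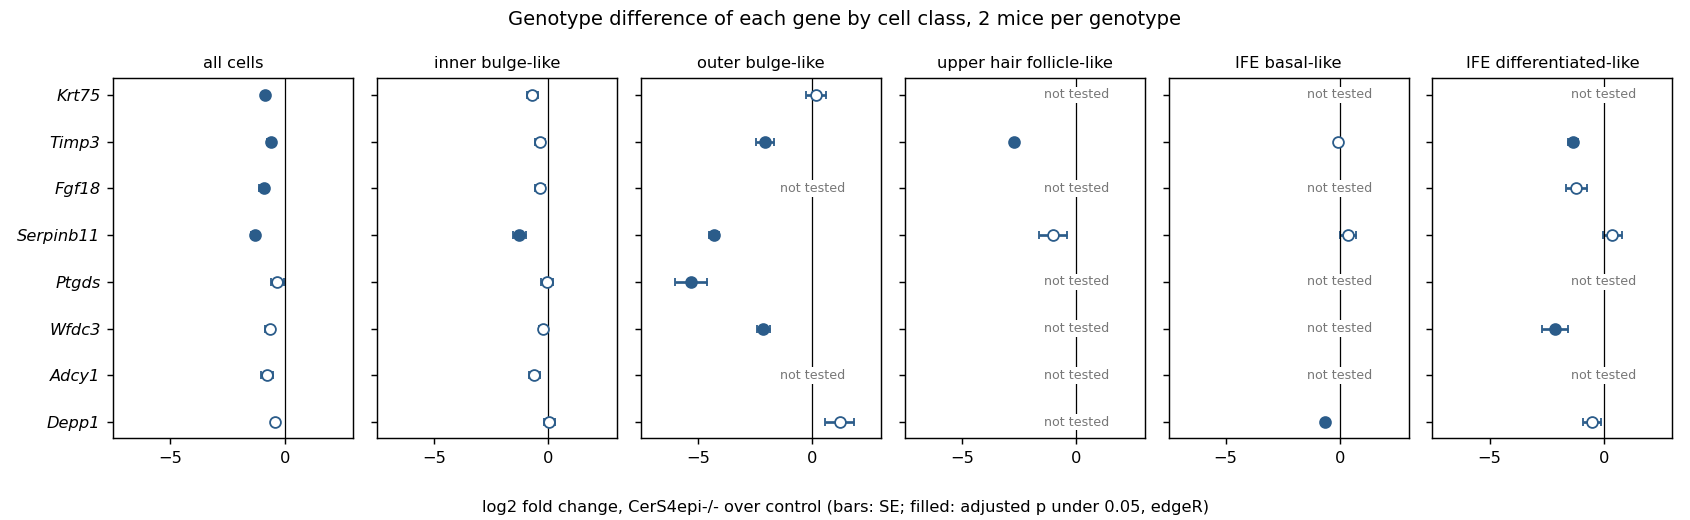
Log2 fold change of CerS4epi-/- over control (horizontal axis) for each gene in all cells and in 5 cell classes. Points are fitted values, bars are standard errors and filled points have an edgeR adjusted p under 0.05; the outer bulge-like panel has 4 filled points at -2.06 or below, and the inner bulge-like panel has 1, Serpinb11 at -1.27.

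In the upper hair follicle-like cells, the cells of the junction between follicle and epidermis, Timp3 and Serpinb11 had enough counts for a test. Timp3 was at 319 and 328 CPM in the control mice and 44.4 and 47.0 CPM in the CerS4epi-/- mice, a mean of 324 ± 6.55 against 45.7 ± 1.83 (SD, n = 2). The groups were far apart. The log2 fold change of -2.72 (SE 0.12, edgeR adjusted p = 2.63e-07) was called under 14 of 14 alternatives. Timp3 was 1 of 2 members tested that fell in this class, where 2.42% of all genes were called lower and 4.46% higher. Marker levels in this class also moved with the genotype. The 7 upper hair follicle markers summed to 45566 and 45439 against 57032 and 69793 CPM. The 4 inner bulge markers that are not members summed to 294 and 297 against 1512 and 1995 CPM. Of the clusters named upper hair follicle-like, 1 held 219 and 92 against 736 and 771 cells. The other held 340 and 321 against 425 and 334. The part of these in the difference of Timp3 was not tested.

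A count of Timp3 was seen in 28.1% and 33.6% of the control upper hair follicle-like cells and in 8.70% and 6.73% of the CerS4epi-/- cells, and in 1.40% to 3% of T cell-like cells. Thinned to 1200 counts the shares were 19.5% and 25% against 4.07% and 2.68%. The median depth of these cells was 2195 and 2006 counts in the controls and 3029 and 2752 in the CerS4epi-/- mice. The fall was smaller in inner bulge-like than in upper hair follicle-like cells by 2.35 on the log2 scale (SE 0.27, edgeR adjusted p = 4.88e-05), where 0.776% of all genes passed. Serpinb11 in the same cells was at 4.38 and 6.99 against 3.19 and 1.58 CPM and did not pass (log2 fold change -1.02, edgeR adjusted p = 0.402).

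The keratinocytes of the interfollicular epidermis held some members at low levels. In IFE basal-like cells Depp1 was at 24.7 and 26.2 CPM in the controls and 14.1 and 17.3 CPM in the CerS4epi-/- mice. The groups did not overlap and Depp1 fell by 0.65 on the log2 scale (SE 0.13, edgeR adjusted p = 0.0212), the 1 of 3 members tested, where 2.48% of all genes were called lower and 4.04% higher. The call was lost without control 2, without CerS4epi-/- 1 and at a limit of 10% mitochondrial counts (adjusted p up to 0.0653 over the alternatives). IFE basal-like cells held 59.1% of all Depp1 counts in the controls and 51.3% in the CerS4epi-/- mice, the larger part of what was measured of this gene.

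Timp3 in IFE basal-like cells was at 67.8 and 48.7 against 56.5 and 48.8 CPM, with overlapping groups (log2 fold change -0.09, SE 0.15, edgeR adjusted p = 0.781). Serpinb11 was at 1.28 and 1.57 against 1.87 and 1.60 CPM, with both CerS4epi-/- mice just above both controls, and did not pass (log2 fold change 0.35, SE 0.33, edgeR adjusted p = 0.589). The genotype effect on Serpinb11 was more negative in inner bulge-like than in IFE basal-like cells by 1.62 (difference -1.62, SE 0.38, edgeR adjusted p = 0.00227), where 1.22% of all genes passed.

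In IFE differentiated-like cells Timp3 and Wfdc3 fell, 2 of 5 members tested, where 3.58% of all genes were called lower with either gate and 4.66% higher with the first. Timp3 was at 27.9 and 17.2 against 9.68 and 7.65 CPM and the groups did not overlap (log2 fold change -1.35, SE 0.21, edgeR adjusted p = 0.00506), a call lost without either CerS4epi-/- mouse. Wfdc3 rested on 20 and 17 counts against 5 and 1 (log2 fold change -2.13, SE 0.57, edgeR adjusted p = 0.0488), so that it passed the filter on low counts only through the controls, and the call was lost without any 1 of the 4 mice, with an adjusted p up to 0.257. Fgf18 had 27 and 52 counts against 9 and 15, and both CerS4epi-/- mice were below both controls, but the log2 fold change of -1.21 did not pass (edgeR adjusted p = 0.134).

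Where the counts of a gene lay was set side by side for the genotypes as a description. Inner bulge-like cells held 92.3% of the Krt75 counts in the controls and 72.0% in the CerS4epi-/- mice. The same shares were 85.7% and 79.8% for Ptgds, 82.2% and 71.6% for Adcy1, 78.8% and 76.3% for Wfdc3, and 70.7% and 58.5% for Serpinb11. Fgf18 had 60.0% and 64.8%, Timp3 35.0% and 33.1%, and Depp1 22.1% and 23.9%. Krt75 and Serpinb11 thus had the widest gaps between genotypes, and Timp3 and Depp1 were mostly counted outside the inner bulge-like cells in both.

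Krt75 was the 1 member of 8 called higher in CerS4epi-/- mice among the cell sets tested, and this was in all cells other than the inner bulge-like ones, where 8.25% of all genes were called higher. It was at 0.628 and 0.655 CPM there in the controls and 1.36 and 1.18 CPM in the CerS4epi-/- mice, from 25 and 28 against 65 and 41 counts. The groups did not overlap (log2 fold change 0.99, SE 0.24, edgeR adjusted p = 0.0449), and the call held in 4 of 14 alternatives. It was lost without each mouse in turn, with DESeq2 and with the replicate block, and the sign turned (-0.19, edgeR adjusted p = 0.774) without cells that held immune or fibroblast counts.

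Much of this Krt75 lay in the outer bulge-like cluster. That cluster held 1 and 2 Krt75 counts in the controls and 46 and 33 in the CerS4epi-/- mice, which is 0.278% and 0.613% against 24.1% and 17.6% of all Krt75 counts. It also held more cells in the CerS4epi-/- mice (112 and 65 against 409 and 406), and Krt75 was there at 2.84 and 9.36 against 19.7 and 15.9 CPM (log2 fold change 1.81, edgeR adjusted p = 0.126). In the upper hair follicle-like cells 0 and 0 counts were seen in the controls and 7 and 5 in the CerS4epi-/- mice. The leading genes of the outer bulge-like cluster by fold were Krt6a, Lhx2, Gpx2 and Shisa2, so its name rests on Lhx2 among them and Krt6a, a keratin of the inner bulge, stood at its head.

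**Figure D4:**
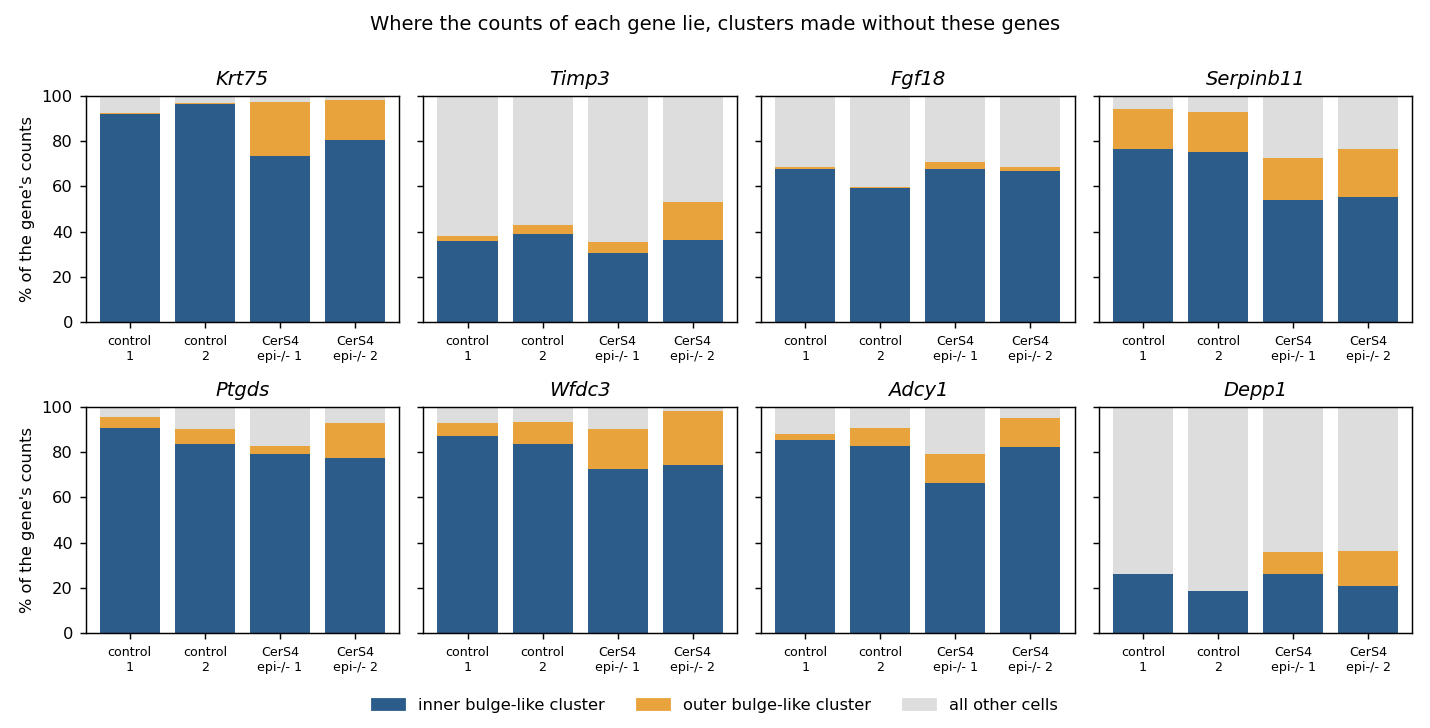
Share of each gene's counts (vertical axis, percent) in the inner bulge-like cluster, the outer bulge-like cluster and all other cells, for each mouse. Clusters were made without these 8 genes; for Krt75 the outer bulge-like part is 0.278% and 0.613% in the control mice and 24.1% and 17.6% in the CerS4epi-/- mice.

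The genes that work with these members were read from 8 lists, in the cells of the first gate unless the second is named. In the inner bulge-like cells the prostaglandin list stood next to Ptgds with 3 of its 14 genes tested and 2 called lower, while Ptgds itself did not pass. Ptgs1, the cyclooxygenase that supplies the precursor of prostaglandin D2, gave 41 and 41 counts in the controls and 2 and 0 in the CerS4epi-/- mice, a ratio of 0.0307 (95% exact interval 0.00366 to 0.115, edgeR adjusted p = 0.0006). Hpgds, the hematopoietic-type prostaglandin D synthase, gave 14 and 19 against 1 and 1 counts, a ratio of 0.0763 (0.00887 to 0.298, edgeR adjusted p = 0.037), a call lost without either control mouse, with the replicate block and with DESeq2's test. Both genes entered this test through the controls. In the cells of the second gate both calls stood (Ptgs1 -5.40, edgeR adjusted p = 0.00854, and Hpgds -4.43, edgeR adjusted p = 0.0342). These are largely the same cells, so the second gate is not independent support. Both also fell in outer bulge-like cells, by 1.02 and 2.75 on the log2 scale (edgeR adjusted p = 0.0198 and 0.0116), where 2 of 7 genes tested in that list were called. Hpgds was there at 34.3 and 148 against 15.9 and 8.88 CPM and passed the filter on low counts only with the controls. Neither fall was limited to the bulge. In edgeR's test Ptgs1 fell by 0.97 in upper hair follicle-like cells (adjusted p = 0.00583). Hpgds fell there by 2.13, in IFE basal-like cells by 1.06, in IFE differentiated-like cells by 1.2 and over all cells by 1.51 on the log2 scale. In upper hair follicle-like cells it too passed that filter only with the controls, at 17.5 and 15.7 against 4.17 and 2.90 CPM. Of these classes its level was highest in the IFE differentiated-like cells, at 252 and 271 against 124 and 104 CPM, and the 6 IFE differentiation markers in the inner bulge-like cells summed to 17197 and 19861 against 12426 and 5208 CPM. The part of these in the difference of Hpgds was not tested.

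Of the fibroblast growth factor list, 4 of 13 genes were tested in inner bulge-like cells and Dusp6, a feedback phosphatase of that pathway, was called higher. It was at 80.1 and 52.7 against 269 and 129 CPM (log2 fold change 1.58, edgeR adjusted p = 0.0443), but in the cells of the second gate it did not pass (0.63, edgeR adjusted p = 0.635). Dusp6 was also called higher in IFE basal-like cells (1.45), IFE differentiated-like cells (1.11) and all cells (1.33). The receptors Fgfr2 (-0.80, adjusted p = 0.296) and Fgfr3 (0.76, adjusted p = 0.238) did not pass in edgeR's test. In outer bulge-like cells Dusp6 rose by 1.67 (edgeR adjusted p = 0.00151) while Spry1, another feedback inhibitor, fell by 1.17 (edgeR adjusted p = 0.00661), 2 of 7 genes tested.

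Follicle keratins beside Krt75 were also read. In inner bulge-like cells 2 of 4 tested were called higher: Krt79, of the upper follicle, at 38.4 and 48.9 against 489 and 487 CPM (log2 fold change 3.48, edgeR adjusted p = 1.3e-05), and Krt17 at 1390 and 933 against 4624 and 6492 CPM (2.27, edgeR adjusted p = 0.0006). Both calls were lost in the cells of the second gate, where the log2 fold change was 0.53 for Krt79 (edgeR adjusted p = 0.737) and 0.17 for Krt17 (edgeR adjusted p = 0.889). Krt6a was at 7666 and 4904 against 10454 and 13724 CPM and did not pass (0.95, edgeR adjusted p = 0.0766; second gate 0.57, 0.358). The summed level of the 7 upper hair follicle markers, Krt79 among them, was 2264 and 591 CPM in the control inner bulge-like cells and 8583 and 10265 CPM in the CerS4epi-/- ones by the first gate. By the second gate it was 3702 and 2434 against 5262 and 1038 CPM, and the groups overlapped. Its part in the levels of the 8 members was not tested.

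In outer bulge-like cells 3 of 4 follicle keratins tested were called higher, Krt16 by 2.21, Krt6a by 1.37 and Krt17 by 1.15 on the log2 scale. Of the list of FOXO factors and their targets, kept for Depp1, 1 of 10 tested in inner bulge-like cells was called, Txnip, at 1172 and 1302 against 557 and 510 CPM (log2 fold change -1.2, edgeR adjusted p = 0.0143; second gate -1.10, 0.0306). In outer bulge-like cells 3 of the 14 were called, 2 higher and 1 lower. Outer bulge-like cells also held 1 called gene each in the lists of TIMP partners (Mmp14, 1.11), adenylyl cyclase partners (Adcy7, 1.72), whey acidic protein relatives (Slpi, 2.67) and serpins of clade B (Serpinb2, -1.14). Slpi was there at 2.02 and 2.47 against 16.9 and 11.8 CPM, so it passed the filter on low counts only through the CerS4epi-/- mice.

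The genes with the most similar profile to a member were named by Pearson's r over the mean control levels of 9 cell classes, among genes of at least 10 CPM in one of them. These classes share libraries and differ in depth, so the values describe the control mice. For Serpinb11 they were Tbx1 (0.986), Pdlim3 (0.984) and Rgl3 (0.983), and Tbx1 is a marker of the bulge used in the outer bulge gate. For Ptgds they were Ltbp2 (0.999), Krt19 (0.999) and Pdlim3 (0.998), and for Adcy1 Cilp2 (0.981), Pappa (0.981) and Krt19 (0.974). Timp3 was nearest to Sesn1, Krt16 and Dpysl3 (0.972 each), Krt75 to Lmod2 (0.998), Fgf18 to Phactr1 (0.989), Wfdc3 to Clvs1 (0.985) and Depp1 to Sdk2 (0.965).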

How the data were processed

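Single cells from 4 libraries, 1 per mouse, were analysed. The authors deposited estimated counts per gene and barcode, in which reads mapping to several genes were shared by expectation maximisation (STAR 2.7.10a in its single-cell mode, reads trimmed with fastp 0.23.2, build GRCm39, per the submitters' processing notes and the study's methods), so that 4.55% to 4.81% of entries were not whole. Barcodes under 1200 counts or over 20% mitochondrial counts were dropped. Inner bulge-like, outer bulge-like (at least 3 counts of at least 2 markers), T cell, Langerhans cell and sebaceous gland-like cells were gated by marker counts and the epidermal and upper follicle classes by the leading marker score (by 0.05). A clustering of 3000 variable genes with the 8 members held out (50 components, 30 neighbours, Leiden resolution 1.5, scanpy 1.11.5) was the check. No doublet caller was run, and doublets were taken as present.

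Counts were summed per class and mouse, rounded and tested in R 4.3.3 with edgeR 4.0.16 (TMM, filterByExpr, quasi-likelihood test, Benjamini-Hochberg over all genes tested, threshold 0.05) where each mouse had at least 20 cells. Cells were not used as replicates, nor were the study's random pseudoreplicates. The p-values rest on the spread between 2 mice per genotype, which edgeR moderates over all genes tested. A small p therefore does not measure the spread of that gene between mice alone. The script was tested on simulated data with known changes, at a fixed spread and for genes above a minimum count. In simulated inner bulge-like sums it recovered 18.4% of changes of 1 and 83.0% of changes of 2 on the log2 scale. Over all cells it recovered 69% and 99%. Alternatives were DESeq2 1.42.0 (its test, and its size factors), no filter, the replicate block, leaving out each mouse, other cell filters, clusters, stricter gates and leaving out cells with immune or fibroblast counts. Exact intervals (95%) cover counting error only. The members, gene lists and tests were chosen with earlier results of these data known. The text names all 8 members, Cers4, and per list and class at most 3 called genes of largest change, besides Krt6a and the growth factor receptors, and for each member up to 3 genes of most similar profile. Promoters came from RefSeq (GRCm38.p6), a build other than that of the counts, and no coordinate was converted.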

Additional observations from a re-analysis of the deposited data

Results flagged for a closer look

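The genotype difference of 4 members differed between inner and outer bulge-like cells by a test of the difference itself (edgeR's quasi-likelihood test with the mouse as a block). On the log2 scale, inner minus outer bulge-like, it was 3.01 for Serpinb11 (SE 0.33, adjusted p = 0.00013), 5.13 for Ptgds (SE 0.74, adjusted p = 0.00156), 1.86 for Wfdc3 (SE 0.32, adjusted p = 0.0076) and 1.76 for Timp3 (SE 0.40, adjusted p = 0.0452). All 4 were lower in CerS4epi-/- outer bulge-like cells of both mice. The value of Ptgds rests on 23 control and 2 CerS4epi-/- counts in the outer bulge-like cells, where the gene passed the filter on low counts only through the control mice.

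For Timp3 the genotype difference also differed between inner bulge-like and upper hair follicle-like cells, by 2.35 (SE 0.27, edgeR adjusted p = 4.88e-05). For Serpinb11 it differed between inner bulge-like and IFE basal-like cells in the other direction, by -1.62 (SE 0.38, edgeR adjusted p = 0.00227).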

How the results depend on the processing

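The 14 called values of members kept their call and direction in 136 of 176 alternatives, lost the call in 39 and turned sign in 1. Of 321 alternatives to values not called, 25 were called and 27 turned sign. The count of members called lower over all cells (4) was 2 at 2000 counts per cell and 1 to 6 when 1 mouse was left out. In inner bulge-like cells (1) it was 2 without a filter, 0 without cells holding immune or fibroblast counts and 0 to 2 with 1 mouse left out. In outer bulge-like cells (4) it was 2 to 4 with 1 mouse left out. In IFE basal-like cells (1) it was 0 at 10% mitochondrial counts and 0 to 1 with 1 mouse left out. In IFE differentiated-like cells (2) it was 1 with DESeq2's test, at 2000 counts, at 10% mitochondrial counts, with clusters, without immune or fibroblast counts and without the inner bulge cluster (chosen after seeing the data), and 0 to 2 with 1 mouse left out. The 1 member called higher outside the inner bulge-like cells, Krt75, was 0 with DESeq2's test, the replicate block, 10% mitochondrial counts, clusters, stricter gates, without immune or fibroblast counts and with any mouse left out. The cause of these changes was not tested.

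The replicate block gave 5 members called lower over all cells, 1 in inner bulge-like and 4 in outer bulge-like cells. The calls over all genes moved with the setting as well, so these counts are not results about the members alone. Called lower over all cells were 969 of 16034 genes in the main fit and 1128 with the replicate block. In outer bulge-like cells with the first gate they were 375 and 563 of 8705. In first-gate inner bulge-like cells they were 37 of 4186, and 20 of 3184 without cells holding immune or fibroblast counts. Replicate numbers correlated across genotypes at 0.03 in inner bulge-like, 0.02 in outer bulge-like and -0.03 over all cells, with only 2 pairs, so the samples share a number and no pairing was used. Sign turned, among values not called except Krt75 outside the inner bulge, as follows (log2). Without 1 mouse: values ran over Ptgds -0.70 to 0.20 in all cells and -0.38 to 0.33 in inner bulge-like cells, Depp1 -0.25 to 0.39 in inner bulge-like and -1.06 to 0.28 in IFE differentiated-like cells, Krt75 -0.0013 to 0.33 in outer bulge-like, Timp3 -0.30 to 0.17 in IFE basal-like, Serpinb11 -0.12 to 0.91 in IFE differentiated-like and Adcy1 -0.57 to 0.19 outside inner bulge-like cells. With clusters: Ptgds 0.17 in inner bulge-like, Wfdc3 0.23 and Adcy1 0.055 outside them. At 2000 counts: Depp1 -0.029 in inner bulge-like, Ptgds -0.14 and Wfdc3 0.079 outside them. With stricter gates: Depp1 -0.19 in inner bulge-like, Krt75 -1.06 in outer bulge-like, Serpinb11 -0.86 in IFE differentiated-like and Ptgds -0.15 outside inner bulge-like cells. Without immune or fibroblast counts: Ptgds 0.037 in inner bulge-like, Krt75 -1.44 in outer bulge-like, and Krt75 -0.19 and Adcy1 0.0044 outside inner bulge-like cells. Without the inner bulge cluster: Wfdc3 0.26 and Adcy1 0.27 outside inner bulge-like cells. Depth limits this class: 33 to 72 inner bulge-like cells per mouse entered each fit.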
